A study of Mus musculus with 6 samples.

Results

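Acyl-CoA thioesterases cut the thioester bond of an acyl-CoA and release a free fatty acid and coenzyme A. In hepatocytes they oppose the acyl-CoA synthetases, and in mitochondria and peroxisomes they free coenzyme A when fatty acids arrive in excess. Several of their genes are known in mouse liver as targets of PPARα, the nuclear receptor that switches on fatty acid oxidation in fasting. The 9 genes Acot1, Acot2, Acot3, Acot4, Acot7, Acot9, Acot11, Acot12 and Acot13 were taken by symbol from the 19764 genes of the deposited table, and each was found. All 9 passed the filter on low values.

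Primary hepatocytes of Bl6/N mice were kept for 16 h in starvation medium with 5 mM glucose, and polyA RNA was sequenced from 3 Control and 3 TNF libraries. For 8 h both groups received the glucocorticoid receptor ligand corticosterone (1 µM) together with the PPARα ligand WY-14643 (10 µM). TNF cells received 1 ng/ml TNF, an inflammatory cytokine, at the same time, and Control cells its vehicle. No group lacked corticosterone or WY-14643, so neither ligand's own effect was measured. The labels do not say whether replicates are separate animals or cultures, so p-values measure the spread between these samples, which may be technical.

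Libraries held 17612060 to 25114289 reads over genes. Levels are CPM, reads scaled to library size. The summed CPM of 10 hepatocyte markers was 37296 to 57544 in Control and 34497 to 50383 in TNF, lower with TNF in every pair. In the limma fit with replicate numbers as blocks, described below, 5 of these markers were lower (11.2% of all genes tested were), and in the fit without the block 0 were called. Summed macrophage markers reached 144 to 232 CPM in Control and 147 to 234 in TNF. Cd68 alone made up nearly all of this sum (means of 180 and 179 CPM), the other markers had means up to 0.314 CPM in Control, with Clec4f and Timd4 at 0 CPM in Control and 1 of 12 tested. Lymphocyte and neutrophil markers summed to 0.165 to 0.718 CPM in Control and 0.161 to 0.345 in TNF, with Cd3g, Nkg7 and Ly6g at 0 in every library. Endothelial markers summed to 113 to 198 and 128 to 202 CPM, stellate markers to 19.6 to 69.5 and 21.0 to 47.3 CPM, and cholangiocyte markers to 38.0 to 47.0 and 42.6 to 64.4 CPM. Reln carried most of the stellate sum (means of 45.3 CPM in Control and 31.2 in TNF). In the cholangiocyte sum, the mean of Sox9 was 22.7 CPM in Control and 35.0 in TNF. The means of Pkhd1 (12.5 and 9.88 CPM) and Spp1 (6.88 and 6.41 CPM) were lower with TNF, and the other means were up to 1.01 CPM. With the block, 2 of 9 tested endothelial markers were higher and 1 lower. Of 5 tested stellate markers 1 was lower, and of 4 tested cholangiocyte markers 1 was higher and 1 lower. In that fit 9.4% of all genes tested were higher and 11.2% lower. Without the block 0 of these markers were called. The part of cell composition in the changes described here was not tested, and fewer cells of a type cannot be told apart from less RNA per cell.

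Acot1, Acot2, Acot3 and Acot4 lie side by side on the + strand of chromosome 12 (mm10), with Acot5 and Acot6 after them, in the order Acot2, Acot1, Acot4, Acot3, Acot5, Acot6 over 121923 bases. Acot2 spans 83987861 to 83993875, Acot1 84009502 to 84017669, Acot4 84038379 to 84044723 and Acot3 84052151 to 84059564. Acot7 (152178100 to 152271855, + strand) and Acot11 (106744561 to 106799831, - strand) are on chromosome 4. Acot12 (91741521 to 91786148, + strand) and Acot13 (24817955 to 24831489, - strand) are on chromosome 13, and Acot9 (155262500 to 155297507, + strand) is on the X chromosome. The 5 genes that fell with TNF, as described below, are the chromosome 12 members and Acot12. The 250 bases upstream of a start of each gene are shown, from RefSeq (GRCm38.p6), because these genes were lower together. Capitals mark the letters of the CCAAT box (CCAAT), the TATA box (TATAAA) and the nuclear receptor half-site (AGGTCA). Matches on either strand and at any distance from the start are marked, including a pair of overlapping TATA matches in Acot4. The TATA matches of Acot4 begin 151 to 205 bases before the start, and the CCAAT match of Acot2 begins 244 bases before it.
Acot2 (chr12:83987611-83987860, + strand): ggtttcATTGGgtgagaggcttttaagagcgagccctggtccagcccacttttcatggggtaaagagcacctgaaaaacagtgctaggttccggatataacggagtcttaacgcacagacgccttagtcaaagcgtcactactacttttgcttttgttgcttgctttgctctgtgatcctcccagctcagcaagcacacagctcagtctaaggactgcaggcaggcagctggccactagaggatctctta
Acot1 (chr12:84009252-84009501, + strand): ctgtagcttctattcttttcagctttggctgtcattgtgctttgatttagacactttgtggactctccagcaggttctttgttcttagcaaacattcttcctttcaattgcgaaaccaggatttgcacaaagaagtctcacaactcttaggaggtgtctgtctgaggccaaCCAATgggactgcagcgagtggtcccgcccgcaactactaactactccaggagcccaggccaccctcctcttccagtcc
Acot4 (chr12:84038129-84038378, + strand): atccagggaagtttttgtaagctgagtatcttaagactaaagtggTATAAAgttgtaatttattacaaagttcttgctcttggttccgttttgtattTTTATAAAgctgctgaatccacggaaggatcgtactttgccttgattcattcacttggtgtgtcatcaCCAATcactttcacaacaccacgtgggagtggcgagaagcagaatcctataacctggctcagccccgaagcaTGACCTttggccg
Acot3 (chr12:84051901-84052150, + strand): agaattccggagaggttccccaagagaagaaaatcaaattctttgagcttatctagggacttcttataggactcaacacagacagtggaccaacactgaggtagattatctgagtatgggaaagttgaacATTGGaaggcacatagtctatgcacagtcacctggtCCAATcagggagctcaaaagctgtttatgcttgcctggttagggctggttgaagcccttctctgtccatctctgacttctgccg
Acot12 (chr13:91741271-91741520, + strand): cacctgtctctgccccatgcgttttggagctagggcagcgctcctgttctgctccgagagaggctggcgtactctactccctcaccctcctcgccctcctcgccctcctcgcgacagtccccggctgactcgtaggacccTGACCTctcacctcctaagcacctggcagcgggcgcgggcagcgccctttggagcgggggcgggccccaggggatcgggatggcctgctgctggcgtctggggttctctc

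Each of the first 4 sequences has at least 1 match to the CCAAT box, as do 6 of the 8 members with a RefSeq promoter and 33.8% of all 32817 promoter windows. Acot4 and Acot12 hold 1 half-site AGGTCA each, a match found in 14.0% of windows. The direct repeat bound by PPARα with its partner RXR, searched as AGGTCANAGGTCA, is in none of the windows of the 8 members and in 0.0335% of all windows. A looser form, AGGNCANAGGNCA (0.338% of windows), is also in none of the 8. In Acot4 the last 13 bases before the start, which hold its half-site, differ from this looser form by 1 base on the - strand. Such near matches were not counted over the windows. These windows are short, so no match says only that these letters are not in them. The chromosome 12 windows were 51.8% to 57.9% identical over the bases that could be aligned with gaps left out, and identical bases made up 47.2% to 50.8% of the window. Unrelated windows were not aligned, so these values do not say whether the windows are more alike than others. For Acot3 the aligned window was that of another RefSeq start (chr12:84051894-84052143), which overlaps the window shown. Acot13 was not among the promoters matched.

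The coding sequences of these genes are more alike than their promoter windows. In the GENCODE M21 models the Acot1 and Acot2 coding sequences were 95.6% identical over 1236 aligned bases, and 31.0% of all 100-base stretches of Acot1 also occur in Acot2. Acot1 and Acot3 were 84.0% identical with 8.98% of such stretches shared, and Acot2 and Acot3 84.5% with 0% shared. Acot4 was 75.3% to 76.6% identical to Acot1, Acot2 and Acot3. How the authors treated reads that fit more than 1 gene is not given in the sources used here, so the values of Acot1 and Acot2 in particular are uncertain where reads can be shared. The counted length is the whole span of the gene, introns included, for all members but Acot11 and Acot12. Annotated exons made up 35.0% to 44.1% of the span of the chromosome 12 members, and 2.27% (Acot7) to 10.7% (Acot11) of the others.

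With TNF, 5 of the 9 thioesterase genes fell and 0 rose. The word "fell" is used of genes with an adjusted p under 0.05 in the limma fit that takes replicate numbers as blocks ("blocked"), since same-numbered Control and TNF libraries deviated together. The blocked fit called 11.2% of the 12293 genes tested as lower and 9.4% as higher. The fit without the block ("unpaired"), which compares the groups as independent, called 0 of the 9, against 0.431% of all genes in either direction. Acot3 was the 1 member whose unadjusted p was under 0.05 in it, against 8.75% of all genes. Limma-voom on the recovered reads called 0 of the 9 unpaired (0.374% of all genes) and 5 blocked (20.5%). Groups overlapped in all 9 members, while 13.3% of tested genes had groups that did not overlap. Within pairs of the same number 7 members were lower in every pair (27.7% of tested genes were) and 2 were higher in every pair (23.4%). The median log2 change was -0.21 over the 9 members and -0.01 over all genes tested. The authors' deposited table also lists 5 members as lower and 0 as higher at its adjusted p under 0.05, where 8.32% of its genes are lower and 6.85% higher.

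**Figure D1:**
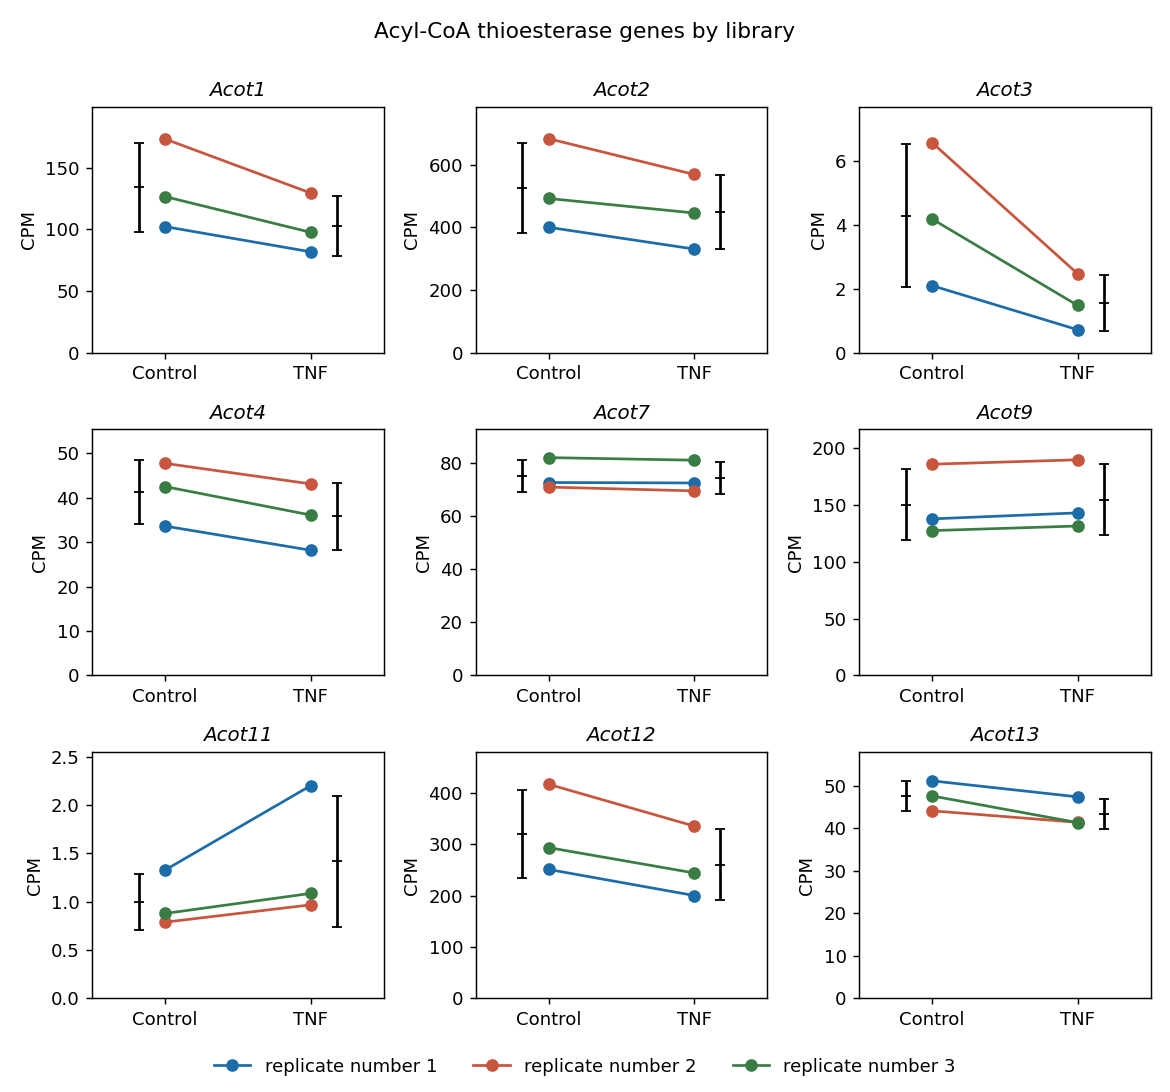
CPM of each thioesterase gene in the 3 Control and 3 TNF libraries; lines join libraries with the same replicate number and black bars show mean ± SD (n = 3). The lines of Acot1, Acot2, Acot3, Acot4, Acot12 and Acot13 slope down in every pair although the groups overlap. Those of Acot7 and Acot9 are nearly level.

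Acot1 and Acot2 encode the long-chain thioesterases of the cytosol and the mitochondrial matrix. Acot1 was at 102, 173 and 127 CPM in Control 1, 2 and 3 and at 81.8, 129 and 97.6 CPM in TNF 1, 2 and 3. Replicate 2 was highest and replicate 1 lowest in both groups, so TNF 2 lay above Control 1 while every TNF library lay below its own Control. Acot1 changed by -20.0%, -25.3% and -22.9% in the 3 pairs, from 134 ± 36.1 to 103 ± 24.3 CPM (mean ± SD, n = 3). On the log2(CPM + 1) scale, used for all tests, its change was -0.37 (SE 0.22 unpaired, 0.037 blocked), with a limma adjusted p of 0.807 unpaired and 5.96e-06 blocked.

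Acot2 was the member with the highest CPM, at 400.0, 683 and 492 in Control 1, 2 and 3 and 331, 568 and 446 in TNF 1, 2 and 3. It showed the replicate order of Acot1, and its Control range holds 2 of the 3 TNF values. The pairs changed by -17.4%, -16.7% and -9.43%. Its log2 change was -0.23 (SE 0.24 unpaired, 0.034 blocked), with a limma adjusted p of 0.958 unpaired and 0.000252 blocked.

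Acot3 and Acot4 encode peroxisomal thioesterases, Acot3 for long-chain acyl-CoAs and Acot4 for succinyl-CoA and other dicarboxylic acyl-CoAs in the mouse. Acot3 was low, at 2.10, 6.58 and 4.19 CPM in Control 1, 2 and 3 (38, 159 and 86 reads) and 0.718, 2.47 and 1.48 CPM in TNF 1, 2 and 3 (15, 46 and 30 reads). Only TNF 2 reached into the Control range. Acot3 changed by -65.8%, -62.5% and -64.7% in the pairs, the largest relative fall among the 9 members. Its log2 change was -1.01 (SE 0.37 unpaired, 0.13 blocked), with a limma adjusted p of 0.467 unpaired and 4.84e-05 blocked. The pseudocount of 1 CPM shrinks changes of so low a gene: the change was -1.42 with 0.1 CPM, -1.45 in blocked limma-voom and -1.46 in the authors' deposited table.

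Acot4 was at 33.6, 47.8 and 42.5 CPM in Control 1, 2 and 3 and at 28.2, 43.1 and 36.1 CPM in TNF 1, 2 and 3. It had the same replicate order as its neighbours, and 2 TNF values lay within the Control range. The pairs changed by -16.2%, -9.71% and -15.1%. The log2 change was -0.21 (SE 0.18 unpaired, 0.053 blocked), with a limma adjusted p of 0.930 unpaired and 0.0123 blocked. Without replicate 3 the blocked adjusted p of Acot4 was 0.0511 in limma.

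Whether the chromosome 12 neighbours changed by different amounts was described with the difference in log2(CPM + 1) between each of their 6 pairs of genes in each library. The difference Acot1 minus Acot3 changed with TNF by 0.53, 0.71 and 0.69 in the pairs of replicates 1, 2 and 3, with a mean of 0.65. Acot2 minus Acot3 changed by 0.58, 0.86 and 0.92 (mean 0.79), and Acot3 minus Acot4 by -0.60, -0.98 and -0.84 (mean -0.81). Acot3 thus had a larger decrease than each of these neighbours in every pair of libraries. With a pseudocount of 0.1 CPM these means were 1.04, 1.19 and -1.20, each larger, and Acot3 is low. Acot1 minus Acot2 was -1.96 ± 0.011 in Control and -2.10 ± 0.091 in TNF (mean ± SD, n = 3) and changed by -0.044, -0.15 and -0.23 in the pairs. Acot1 minus Acot4 changed by -0.072, -0.27 and -0.14, one sign again, and Acot2 minus Acot4 by -0.027, -0.12 and 0.087, with both signs. An exact permutation test of the groups without the pairing (two-sided, n = 3 per group) gave 0.1, the smallest p it can give, for Acot1 minus Acot2 and for the 3 differences with Acot3. It gave 0.2 for Acot1 minus Acot4 and 0.9 for Acot2 minus Acot4, and 0.15 to 0.9 after adjustment over the 6. Since this test cannot reach 0.05 and leaves the pairing out, it says nothing for or against a difference between the neighbours.

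**Figure D2:**
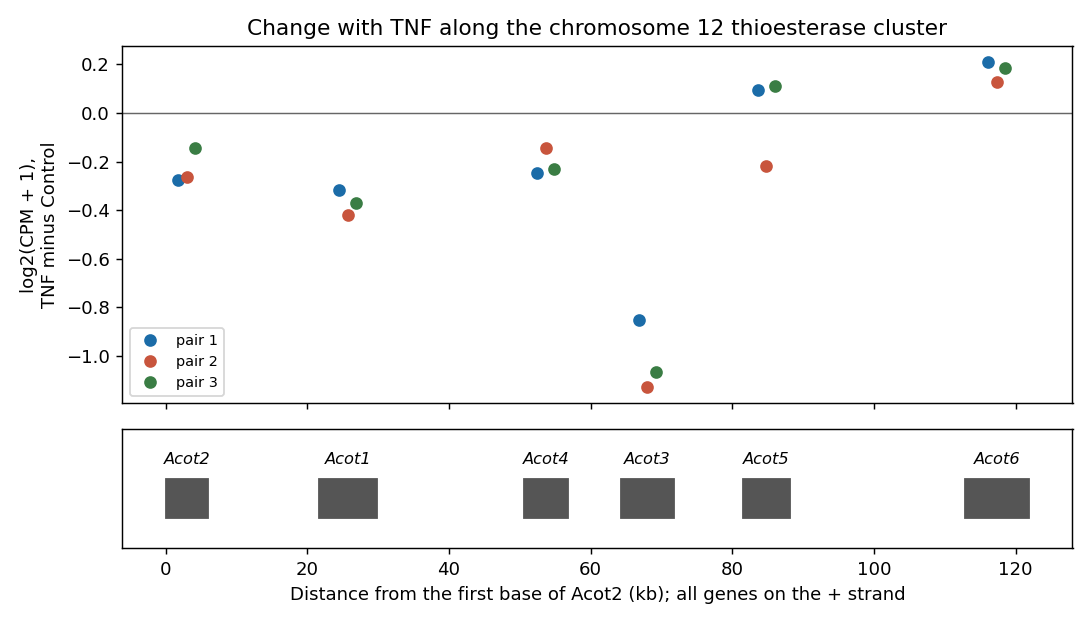
Change with TNF, TNF minus Control in log2(CPM + 1), of the 6 genes of the chromosome 12 cluster in each of the 3 pairs (points), above their positions as distance from the first base of Acot2 in kilobases. All points of Acot2, Acot1, Acot4 and Acot3 are below 0, with Acot3 between -1.13 and -0.85; Acot6 is above 0 in every pair and Acot5 on both sides.

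The other 2 genes of the cluster were at low levels. Acot6, a peroxisomal thioesterase in the mouse, was at 5.91, 5.96 and 6.42 CPM in Control and 6.99, 6.60 and 7.44 CPM in TNF 1, 2 and 3. Its groups did not overlap and TNF was higher, but its log2 change of 0.17 had a limma adjusted p of 0.877 unpaired and 0.273 blocked. Acot5 had 6 to 13 reads in each library (0.405 ± 0.124 CPM in Control and 0.398 ± 0.0784 in TNF) and was not tested.

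Acot12 encodes a cytosolic thioesterase of liver that acts on acetyl-CoA. It was at 251, 417 and 294 CPM in Control 1, 2 and 3 and at 200.04, 336 and 244 CPM in TNF 1, 2 and 3. The order of the replicates was again 2, 3, 1 in both groups, and only TNF 2 lay inside the Control range. The pairs changed by -20.3%, -19.6% and -16.9%, the log2 change was -0.30 (SE 0.23 unpaired, 0.031 blocked), and the limma adjusted p was 0.904 unpaired and 9.13e-06 blocked. Acot12 was counted over 44276 of 44628 bases.

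Acot13, also known as Them2, encodes a small thioesterase associated with mitochondria. It was at 51.2, 44.1 and 47.6 CPM in Control 1, 2 and 3 and at 47.4, 41.4 and 41.4 CPM in TNF 1, 2 and 3. All TNF libraries were below their own Control, with changes of -7.38%, -6.15% and -13.2%, and the groups overlapped. Its log2 change of -0.13 (SE 0.091 unpaired, 0.049 blocked) did not pass, with a limma adjusted p of 0.876 unpaired and 0.0750 blocked.

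Acot7 and Acot9 encode thioesterases best known from brain and from mitochondria, respectively. Acot7 was at 72.6, 70.9 and 82.0 CPM in Control 1, 2 and 3 and at 72.4, 69.4 and 81.0 CPM in TNF 1, 2 and 3. Acot9 was at 138, 186 and 128 CPM in Control and at 143, 190.0 and 132 CPM in TNF. The ranges of Control and TNF nearly coincide for both genes. The log2 change of Acot7 was -0.02 (SE 0.040 blocked; adjusted p 0.821 blocked and 0.999 unpaired, limma). That of Acot9 was 0.04 (SE 0.033 blocked; adjusted p 0.417 blocked and 0.999 unpaired, limma), and it was higher in every pair by 2.09% to 3.85%. Acot10, a single-exon relative of Acot9 that is 97.2% identical to it in coding sequence, had 4 to 13 reads in each library and was not tested.

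Acot11, also known as Them1 and best known from brown fat, was the lowest member. It was at 1.33, 0.786 and 0.876 CPM in Control 1, 2 and 3 and at 2.20, 0.966 and 1.08 CPM in TNF 1, 2 and 3, from 18 to 46 reads a library. TNF 1 was the highest value, and each TNF library was above its own Control. The log2 change was 0.25 (SE 0.24 unpaired, 0.14 blocked), with a limma adjusted p of 0.950 unpaired and 0.246 blocked. The change of so low a gene depends on the pseudocount and on TNF 1: it was 0.41 with 0.1 CPM, 0.48 in blocked limma-voom and 0.49 in the authors' deposited table, and 0.15 in the blocked fit without replicate 1 or 0.030 in the unpaired fit without TNF 1. A stretch of 3732 bases that Acot11 shares with Fam151a on the opposite strand was left out of its counted length.

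**Figure D3:**
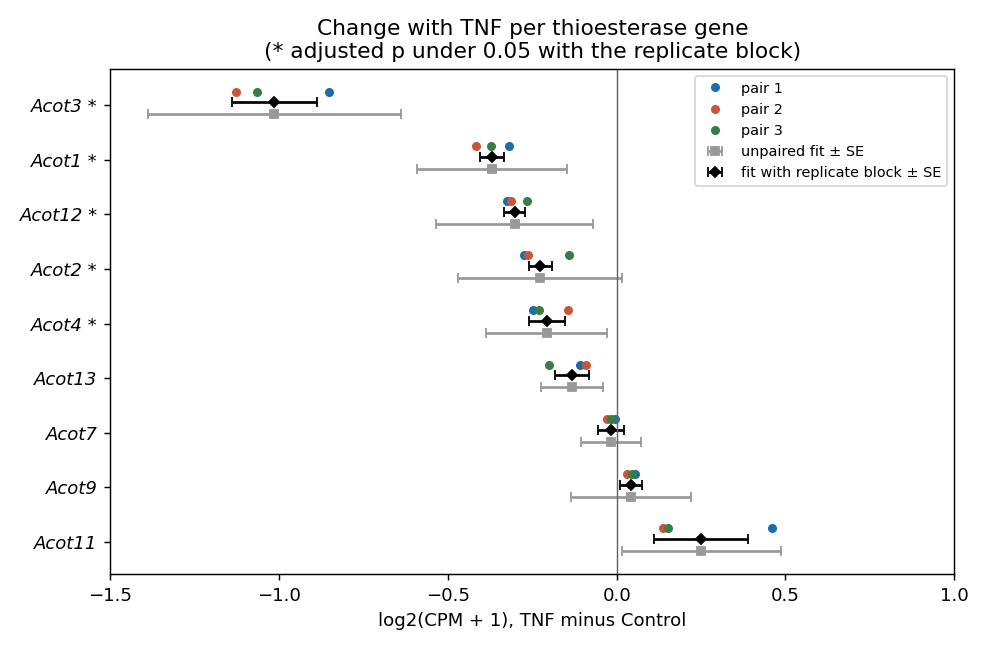
Change of each thioesterase gene with TNF on the log2(CPM + 1) scale: coloured points are the 3 pairs, black diamonds the blocked limma fit and grey squares the unpaired limma fit, each ± SE. Both fits give the same change, and the blocked SE of 0.031 to 0.14 is smaller than the unpaired SE of 0.088 to 0.37 for every gene.

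Levels were compared between genes per kilobase of counted span. In Control, Acot2 stood first at 87.3 ± 24.0 CPM per kilobase, 68.7% of the summed level of the 9 genes, and Acot1 second at 16.4 ± 4.42. Acot12 (7.24 ± 1.95), Acot4 (6.51 ± 1.13) and Acot9 (4.30 ± 0.893) followed, and neighbours among these, and Acot9 and Acot13 (3.52 ± 0.261), overlapped in their ranges. Acot7 (0.801 ± 0.0637) overlapped Acot3 (0.578 ± 0.302), and Acot11 (0.0193 ± 0.00561) was last. The order of the means was the same with TNF, where Acot2 stood at 74.5 ± 19.8 CPM per kilobase and made up 69.2% of the sum. The share of Acot3 was 0.436% in Control and 0.185% in TNF. The summed level was 98.8, 162 and 119 CPM per kilobase in Control 1, 2 and 3 and 82.4, 134 and 105 in TNF 1, 2 and 3, lower in each pair.

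The order was also taken per kilobase of annotated exon, chosen after seeing the data; how far the reads lie in exons was not tested. Acot2 stayed first (239 ± 65.7 CPM per exonic kilobase in Control) but made up a smaller part of the sum, 41.3% in Control and 40.2% in TNF, and Acot12 (97.6 ± 26.3), Acot9 (72.8 ± 15.1) and Acot13 (69.5 ± 5.15) then stood above Acot1 (41.8 ± 11.3), Acot7 (35.4 ± 2.81) and Acot4 (14.8 ± 2.56). Acot3 (1.65 ± 0.864) and Acot11 (0.169 ± 0.0490) were the lowest in Control. With TNF, Acot7 (35.0 ± 2.82) and Acot1 (32.1 ± 7.58) changed places, with overlapping ranges.

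**Figure D4:**
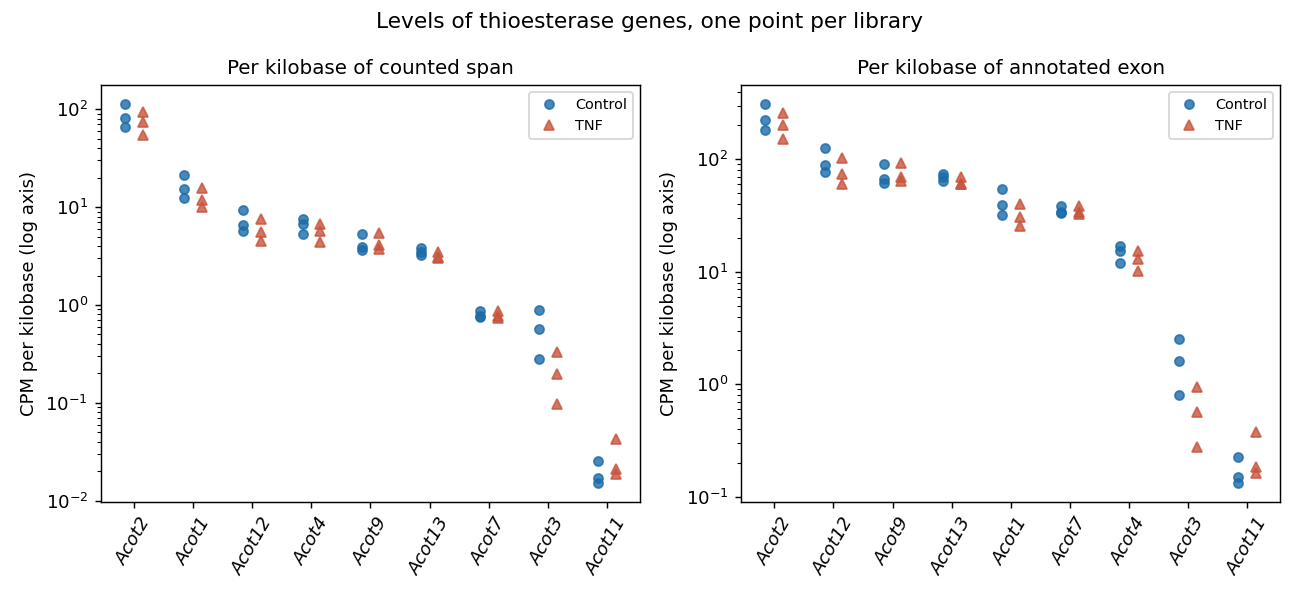
Level of each thioesterase gene in every library (points; Control circles, TNF triangles), in CPM per kilobase of counted span (left) and of annotated exon (right), on log axes, ordered by the Control mean. Acot2 is the highest in both panels, and genes below it change order between the panels. Acot11 is the lowest on the left and has the lowest means on the right. There, its TNF 1 point (0.373) lies above that of Acot3 (0.277).

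Same-numbered libraries had like levels of these genes. Acot1, Acot2, Acot3, Acot4 and Acot12 ran from replicate 2 down to 3 and 1 in Control and in TNF alike. This order was held in both groups by 9.56% of all tested genes and by 36.8% of the 38 tested PPARα targets listed below. Replicate 2 was 1.70 times replicate 1 for Acot1 in Control and 1.58 times in TNF, and 3.13 and 3.44 times for Acot3. For Acot2 these ratios were 1.71 and 1.72, and for Acot12 1.66 and 1.68. Acot7 had replicate 3 highest and Acot13 and Acot11 replicate 1, in both groups. The hepatocyte marker sum was also lowest in replicate 1, at 37296 CPM in Control and 34497 in TNF, and its part in the replicate order was not tested.

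Genes closest to each member in pattern were those with the smallest root mean square difference in log2(CPM + 1), centred on each gene's mean, over the 6 libraries. Acot1 and Acot12 were near each other (0.049), Acot12 being the nearest to Acot1 of all genes tested, and Acot1 the nearest to Acot12. Gucd1 was second for Acot1 (0.063) and Fzd5 for Acot12 (0.053). Acot2 was nearest to Enpp1 (0.040) and Sh3kbp1 (0.052), Acot4 to Palld (0.013) and Plekhb1 (0.040), and Acot3 to Cyp17a1 (0.15) and Hpgd (0.18). For scale, the root mean square of the centred values was 0.34 for Acot1 and 0.69 for Acot3. Acot7 was nearest to Dnajb6 and Tuba1b, Acot9 to Gc and Mknk1, Acot11 to Rps6ka6 and Dennd3, and Acot13 to Marveld1 and Tchp. These distances rest on 6 libraries, of which the Control and TNF groups and the replicate numbers are shared by all genes.

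Other thioesterase genes were tested in 7 of 11 cases, of which 2 fell, 0 rose and 5 did not pass the blocked fit. That fit called 11.2% of all genes tested as lower and 9.4% as higher. Baat, which joins bile acids to glycine or taurine and belongs to the same protein family as the chromosome 12 thioesterases, was at 38.8, 65.2 and 23.7 CPM in Control 1, 2 and 3 and at 26.1, 37.3 and 11.7 CPM in TNF. It was lower in each pair, with changes of -32.7%, -42.8% and -50.5%, with a log2 change of -0.77 and a limma adjusted p of 4.14e-06 blocked and 0.814 unpaired. Ppt2, a lysosomal thioesterase, fell from 43.5 ± 4.17 to 37.6 ± 3.04 CPM (log2 -0.20, limma adjusted p 0.0252 blocked and 0.673 unpaired). The peroxisomal Acot8 (log2 -0.15), Them6 (-0.16), Them4 (0.00) and the lysosomal Ppt1 (-0.00) had blocked limma adjusted p of 0.130, 0.101, 0.976 and 0.996. Them5 had 0 to 1 and Olah 0 to 5 reads a library.

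The acyl-CoA synthetases, which make the substrates of thioesterases, fell in 6 of 18 tested cases and rose in 2, with a median log2 of -0.09. Of all genes tested 11.2% fell and 9.4% rose, with a median of -0.01. The fatty acid transporter and synthetase Slc27a2 (log2 -0.79) and Acss3 (-0.62) had the largest falls on the log2(CPM + 1) scale. Acss3 was low, at 2.78 ± 1.35 CPM in Control and 1.38 ± 0.418 in TNF, and in blocked limma-voom its change of -0.98 was larger than that of Slc27a2 (-0.80). Acsl4, which favours arachidonic acid (0.40), and Acsl5 (0.12) rose. Of 12 genes of acyl-CoA binding and carnitine esters 7 fell and 0 rose, with a median of -0.13. They were led by Crot, the peroxisomal carnitine octanoyltransferase (354.6 ± 50.9 to 253 ± 48.1 CPM, log2 -0.50), and the fatty acid-binding Fabp1 (log2 -0.46). Of 14 genes of coenzyme A synthesis and breakdown 3 fell and 1 rose, with a median of -0.07. Vnn1, a pantetheinase (log2 -0.58), and Pank1, a kinase of the first step of coenzyme A synthesis (36.7 ± 6.69 to 25.7 ± 1.65 CPM, log2 -0.49), were the largest falls, and Slc25a17, a peroxisomal carrier, rose (0.18).

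Among 38 tested PPARα targets 27 fell, 5 rose and 6 did not pass, with a median log2 of -0.20 beside -0.01 for all genes. This list shares genes with the synthetase, carnitine and coenzyme A lists, among them Slc27a2, Fabp1 and Vnn1. The counts of these lists are therefore not independent. The ω-hydroxylases Cyp4a14 (-2.26) and Cyp4a10 (-2.11) fell most, and the hormone Fgf21 (0.39) and the peroxisomal thiolase Acaa1a (0.24) rose most. All list counts are of the blocked limma fit, which called 20.6% of all tested genes (11.2% lower and 9.4% higher). In the unpaired limma fit Cyp4a10 alone was called among the genes of these 5 lists.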

How the data were processed

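STAR 2.6.1a and the build mm10 are named in the submitters' processing notes. The thioesterase genes carry RefSeq identifiers in the deposited table, and the counted length equals the whole gene span for 85.0% of genes. No counting program, annotation release or strand setting was found. Per the file headers and values, the deposited per-library values were log2 CPM to which the authors had added a prior count, and 6 libraries (3 Control, 3 TNF) were grouped by the sample titles. The deposited table also holds the authors' log2 fold change, likelihood ratio score, p-value and adjusted p-value, whose model is not given. Coordinates are those of the table, from base 1.

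The shared floor of the deposited log2 values (0.0978 CPM) was subtracted on the linear scale. Then 100.0% of values were whole multiples of 1 read per library within 0.001 reads, and reads and CPM were taken from these steps with the authors' scaling kept. Libraries held 17612060 to 25114289 reads, and 3 reads, the limit a count of 0 allows, equal 0.124 to 0.166 CPM (counting error only).

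A gene was tested (12293 were) if at least 3 libraries had 10 reads after scaling to the median library and the total was 15 or more. Limma 3.58.1 (R 4.3.3) with a trended prior variance was fitted to log2(CPM + 1), with group as the only term and two-sided Benjamini-Hochberg adjustment over all genes tested. The alternative with the replicate number as a block is given beside it, because deviations from the group means of same-numbered libraries correlated across genes at 0.78, 0.79 and 0.79 (others -0.47 to -0.34). Deviations within a group sum to 0, so the negative values follow from the positive ones and add no evidence for the pairing. Only the titles' numbers and these correlations stand behind the pairing, as no shared animal or day is labelled. The blocked SE borrows from the variance shared over genes. Other alternatives were limma-voom, median-of-ratios scaling, no filter, a pseudocount of 0.1 CPM, the deposited log2 values and leaving out libraries.

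Every member is named whatever its value. From each gene list the 2 called genes with the largest change in each direction are named, and all other thioesterases. Members and lists were chosen with earlier results of these data known. Replicates of a group were not duplicates (chi-square per degree of freedom 23.5 to 41.7). Promoters are from RefSeq (GRCm38.p6), coding sequences and exons from GENCODE M21. Coding sequences were aligned globally, and the longest complete coding transcript of each gene was used.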

Additional observations from a re-analysis of the deposited data

How the results depend on the processing

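The call of the thioesterase genes depends on the pairing. Without the block 0 of 9 were called in the limma fit and in each of 11 alternatives: limma-voom, median-of-ratios scaling, no filter, a pseudocount of 0.1 CPM, the deposited log2 values and each library left out (0 to 0). With the replicate block 5 were lower, as also with the block plus limma-voom, median-of-ratios scaling, no filter, the smaller pseudocount or the deposited values (5 each). With the block and a pair left out 4 to 5 were lower; Acot4 was lost without replicate 3. Over 8 blocked alternatives the log2 change lay between -0.40 and -0.35 for Acot1, -0.27 and -0.20 for Acot2, -1.45 and -0.96 for Acot3, -0.24 and -0.19 for Acot4 and -0.32 and -0.29 for Acot12. Leaving out 1 library in the unpaired fit moved the change of Acot7 between -0.080 and 0.047, of Acot9 between -0.11 and 0.20, and of Acot2 relative to Acot4 between -0.077 and 0.077, turning the sign of each. Unpaired, leaving out 1 library put Acot2 at -0.020 without Control 2 and -0.42 without TNF 2, and moved Acot12 between -0.50 and -0.095, Acot1 between -0.55 and -0.17, Acot4 between -0.35 and -0.050 and Acot11 between 0.030 and 0.38. Over all genes the unpaired count of 53 became 31 with no filter and 9 to 30 with a library left out, with more genes or fewer samples. With the replicate block it was 2530, and with the block plus limma-voom 2520, median-of-ratios scaling 2572, no filter 1743, the smaller pseudocount 2497, the deposited values 2496 and a pair left out 1781 (without replicate 2), 2192 (without replicate 3) and 2288 (without replicate 1). The block moved the called genes from 0 to 2 among other thioesterases, 0 to 8 among acyl-CoA synthetases, 0 to 4 in coenzyme A metabolism, 0 to 7 in acyl-CoA binding and 1 to 32 among PPARα targets. Some genes are in more than 1 of these lists. Depth limits Acot11, Acot3 and the untested Acot5 and Acot10, which had under 50 reads in some or all libraries.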
